A study of Mus musculus with 7 samples.

Results

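The Zfp608 locus is a stretch of mouse chromosome 18 that was followed across 4 deposited lists of transcription factor binding sites. Its members are the peaks whose midpoint lies between 54.7 and 56 Mb of build mm9, a window of 1.3 Mb around Zfp608, which was taken to lie from about 55.05 to 55.15 Mb. The window held 176 of the 82921 peaks of the 3 peak lists together: 101 of 33915 for Shox2 in limb, 31 of 15091 for Shox2 in palate and 44 of 33915 for Pbx in limb. A further list, of regions where Shox2 and Pbx were called together in limb, gave 39 of its 8999 entries. The locus was chosen by its peak counts, since the window from 55 to 56 Mb was among those richest in co-occupied regions. Its counts and overlaps are therefore descriptions without a test.

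The lists come from ChIP-seq, in which DNA bound by a protein is precipitated with an antibody and sequenced, of freshly dissected mouse embryo tissue at E12.5 (E, embryonic day). The 3 groups used are Shox2-HA limb and Shox2-HA palate, both precipitated with anti-HA against an epitope tag on Shox2, and limb precipitated with an antibody against Pbx. Each is 1 library of whole tissue, so replicate error is unknown for all values below. The number and sex of the embryos in a library are not stated in the labels. The other 4 libraries of the series were not analysed here, the untagged and input controls among them.

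Shox2 is a homeodomain transcription factor required for the proximal limb skeleton and for the growth of the palate. Pbx proteins are TALE homeodomain factors that commonly bind DNA next to other homeodomain proteins and take part in patterning the limb. Zfp608 encodes a zinc finger protein known in mouse thymocytes as a regulator of recombination-activating gene expression. It is annotated on the reverse strand, so its start lies toward the upper limit. In the RefSeq table for GRCm38 the nearest protein-coding genes are Csnk1g3, a casein kinase gene, on the lower side and Gramd3, which encodes a GRAM domain protein, on the upper side. The entries between them and Zfp608 include 8 long non-coding RNAs and 4 pseudogenes below and 10 long non-coding RNAs and 6 pseudogenes above, and no other protein-coding gene. No mm9 annotation was used here, so peaks are placed by distance from the limits taken for Zfp608 and not by exon or intron.

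The window was dense in Shox2 limb peaks. It held 77.7 per Mb, against 17.9 per Mb on all of chromosome 18 and 13.2 per Mb over all chromosomes. Palate Shox2 positions lay at 23.8 per Mb in the window, against 6.71 on chromosome 18 and 5.88 over all. Pbx limb peaks lay at 33.8 per Mb, against 13.1 and 13.2. As shares of the lists, the window took 0.298% of Shox2 limb peaks, 0.205% of palate positions and 0.130% of Pbx peaks, so that the limb Shox2 list had the highest share of the 3 peak lists. The co-occupied list, which is made of Shox2 limb peaks, had 0.433% of its entries there. There were 3.26 Shox2 limb peaks per palate position in the window and 2.25 over the whole lists. Cutoffs and depths of the lists are unknown, and this ratio depends on both.

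The count of Shox2 limb peaks was close to the highest in the genome for a window of this length. The locus was chosen as rich in co-occupied regions, which are Shox2 limb peaks, so a high place for both was favoured by that choice. When windows of 1.3 Mb were moved along each chromosome in steps of 100 kb, the highest count away from the locus was 105, on chromosome 3 from 65.8 to 67.1 Mb, and 5 windows reached 101 or more. For co-occupied peaks the highest elsewhere was 47, on chromosome 14 from 22.7 to 24 Mb, and 8 windows reached 39. For palate positions 184 of 26260 windows elsewhere reached 31, with a maximum of 48. For Pbx peaks 1527 of 26482 windows reached 44, with a maximum of 109. Among 1962 adjoining windows laid out from the limits of the locus, each with at least 1 peak, the locus ranked 1 for Shox2 limb, 13 for palate and 106 for Pbx, where 90% of windows held at most 37 Pbx peaks. The locus was thus in the upper part of the range for all 3 lists, with fewer windows at or above it for Shox2 limb than for the other two. The choice of the locus bears on this order too.

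**Figure D1:**
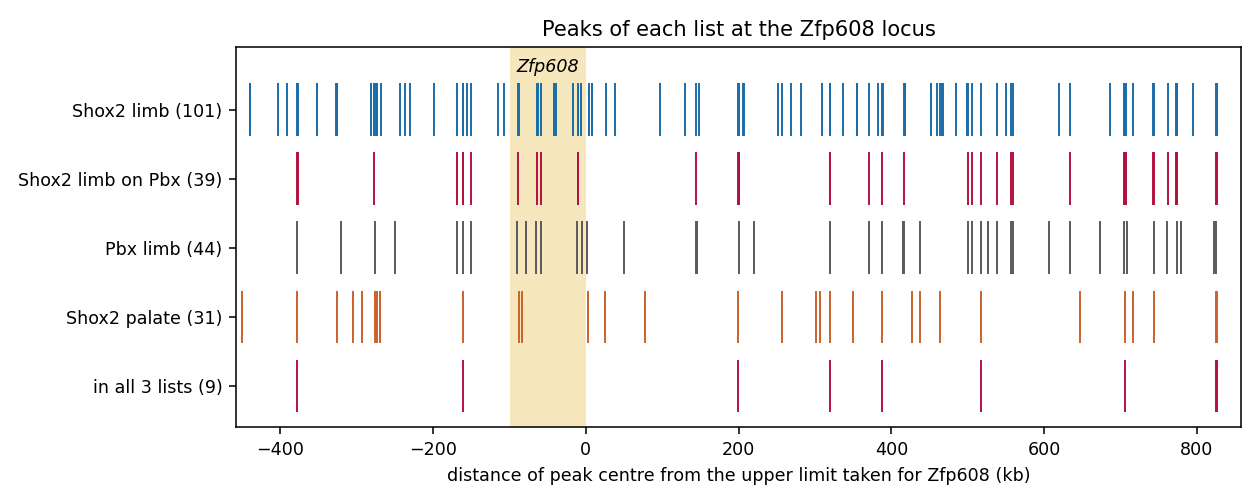
Each line marks the centre of 1 peak, placed on the horizontal axis by its distance in kb from the upper limit taken for Zfp608 (shaded). Rows show the 101 Shox2 limb peaks, the 39 of them on a Pbx limb peak, the 44 Pbx limb peaks, the 31 Shox2 palate positions and the 9 Shox2 limb peaks found in all 3 lists, none of which lies in the gene.

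Shox2 limb peaks were found over the whole window, with a higher average density in the gene than in the stretches below and above it. Of the 101, 28 lay in the 350 kb below Zfp608 (8.0 per 100 kb), 11 in the 100 kb taken for the gene (11 per 100 kb) and 62 in the 850 kb above it (7.29 per 100 kb). With the gene limits widened by 10 kb on each side, 15 lay in the 120 kb of the gene, with 7.94 per 100 kb below it and 7.02 above. In 13 bins of 100 kb the count ran from 4 to 13, with a median of 8, and no bin was without a peak. The fullest bin lay from 55.6 to 55.7 Mb with 13 peaks, followed by the bin from 55.1 to 55.2 Mb with 11, which takes in the upper part of the gene and the 50 kb above it. Bins at 54.8, 54.9 and 55.5 Mb had 9 each. The median distance between neighbouring centres was 7.46 kb, against 22.6 kb on chromosome 18, and 20 of 100 distances were at most 1 kb. The longest stretch without a Shox2 limb centre was 59.2 kb, from 55.71 to 55.77 Mb.

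Pbx limb peaks lay mainly at the gene and above it. There were 7 in the 350 kb below (2.0 per 100 kb), 6 in the gene (6.0 per 100 kb) and 31 in the 850 kb above (3.65 per 100 kb). The bins ran from 1 to 6 peaks, with the highest count from 55.9 to 56 Mb. Neighbouring Pbx centres lay a median of 18.7 kb apart, against 33.7 kb on chromosome 18. Palate Shox2 positions were more even over these 3 stretches, with 9 below (2.57 per 100 kb), 2 in the gene and 20 above (2.35 per 100 kb). This did not hold in the bins of 100 kb. Palate counts ran from 1 to 6 with a median of 2, and Pbx counts over the same range with a median of 4. The fullest palate bins were 54.8 to 54.9 Mb with 6 and 55.4 to 55.5 Mb with 5.

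**Figure D2:**
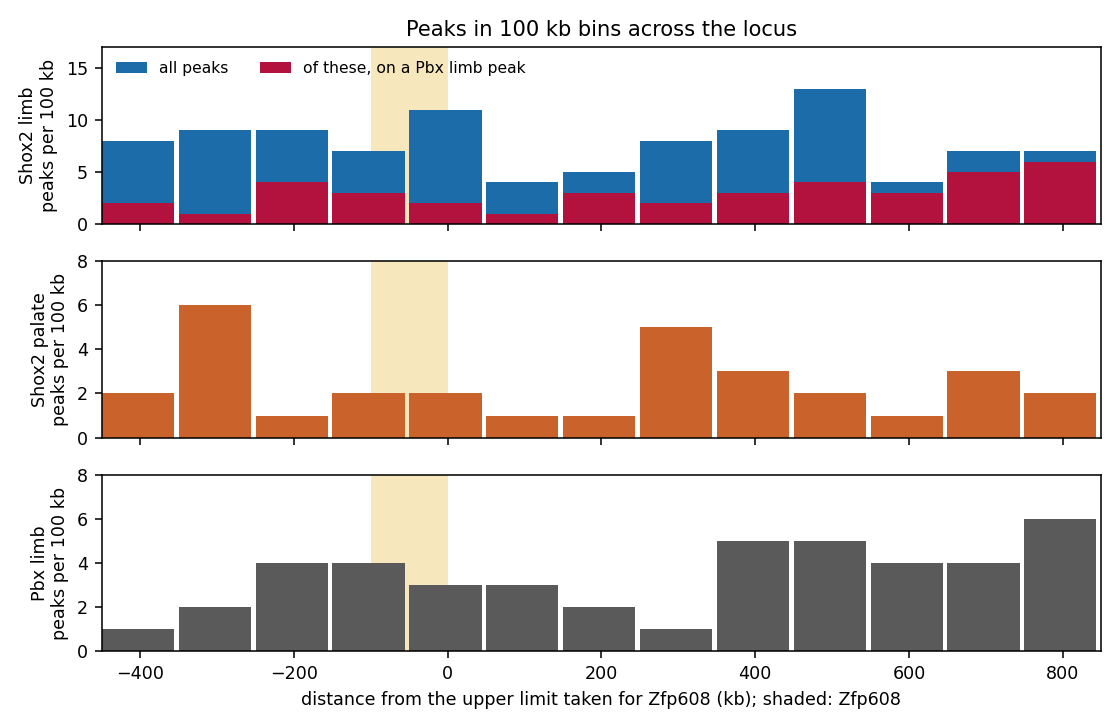
Bars give the number of peak centres per 100 kb bin (vertical axes) along the locus (horizontal axis, kb from the upper limit taken for Zfp608, shaded) for Shox2 limb, Shox2 palate and Pbx limb. In the top row the red part of each bar is the number of Shox2 limb peaks on a Pbx peak, which is 6 of 7 in the last bin and 1 of 9 in the second.

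Within the gene itself 5 of the 11 Shox2 limb peaks (45.5%) overlapped a Pbx peak, against 26.5% of the whole list. None held a palate position, against 6.28% of the whole list, and only 2 palate positions lay in the gene. So few peaks cannot set the gene apart from the list. The co-occupied peak highest in file order was chr18:55060148-55060782, which is 635 bp wide and stands on line 2812 of its list. It overlaps the Pbx peak chr18:55059587-55061035. The Shox2 peak chr18:55084843-55085705 (863 bp, line 3427) overlapped the narrowest Pbx peak of the locus, chr18:55084974-55085483 (510 bp), with centres 45.5 bp apart. Another pair was the Shox2 peak chr18:55091172-55091657 with the Pbx peak chr18:55091150-55091944. The broad Pbx peak chr18:55137136-55140329 (3194 bp) held the other two co-occupied Shox2 peaks, which stand low in the list, on lines 31924 and 29587. The 2 remaining Pbx peaks in the gene, chr18:55070148-55072473 and chr18:55144839-55145840, met no Shox2 peak. The Shox2 peak chr18:55107566-55108158 (line 2925) lay 15621 bp from the nearest Pbx peak.

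Both palate positions in the gene lay outside Shox2 limb and Pbx peaks. Position 55061986, on line 1293 of the palate list, was 102 bp from a Shox2 limb peak and 950 bp from a Pbx peak. Position 55065666, on line 10504, was 3782 bp from the nearest Shox2 limb peak. At the upper limit of the gene, where its start lies, stood the widest Pbx peak of the locus, chr18:55148560-55153142 (4583 bp, line 3091). It held the palate position 55152352 and no Shox2 limb peak, the nearest of which was 143 bp away.

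Above the gene lay the Shox2 limb peaks that stand highest in the list. Whether the order of lines ranks the peaks is not stated in the files, so line numbers are given as a place only. The first 5 peaks of the locus were on lines 145, 252, 803, 819 and 1605 of 33915, all of them 463.4 to 773.3 kb above the upper gene limit. The first, chr18:55922955-55923637 (683 bp), lay in a Pbx peak on line 1276, chr18:55922696-55924427, together with 2 further Shox2 peaks. The second, chr18:55650256-55651115 (860 bp), and the fourth, chr18:55706715-55707688 (974 bp), were centred 21.5 and 26 bp from the centres of their Pbx peaks. The fifth was chr18:55857532-55858153 (622 bp), with centres 217 bp apart. The third, chr18:55613162-55613706 (545 bp), lay 25520 bp from the nearest Pbx peak and held a palate position instead. Of the 10 locus peaks in the first decile of the list, 8 lay above the gene, 2 in it and none of the 28 below.

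The locus as a whole did not stand high in the Shox2 limb list. Its 101 peaks had a median line of 17842, against 16958 for the whole list, and 46 (45.5%) were in the first 50%. Their median width was 282 bp (170 to 1580 bp), against 261 bp. Pbx peaks of the locus stood higher, with a median line of 9505 against 16958 and 29 of 44 (65.9%) in the first 50%, and were wider, with a median of 1115 bp against 897 bp. The 5 highest Pbx peaks were on lines 811, 1276, 2059, 2062 and 2720, all above the gene and all with at least 1 Shox2 limb peak. In the first decile of the whole Pbx list 1463 of 3391 peaks met a Shox2 limb peak. Of the 44 Pbx peaks of the locus, 31 lay above the gene. Neither difference was tested. Palate positions had a median line of 7790, against 7546, with 7 of 31 (22.6%) in the first decile.

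**Figure D3:**
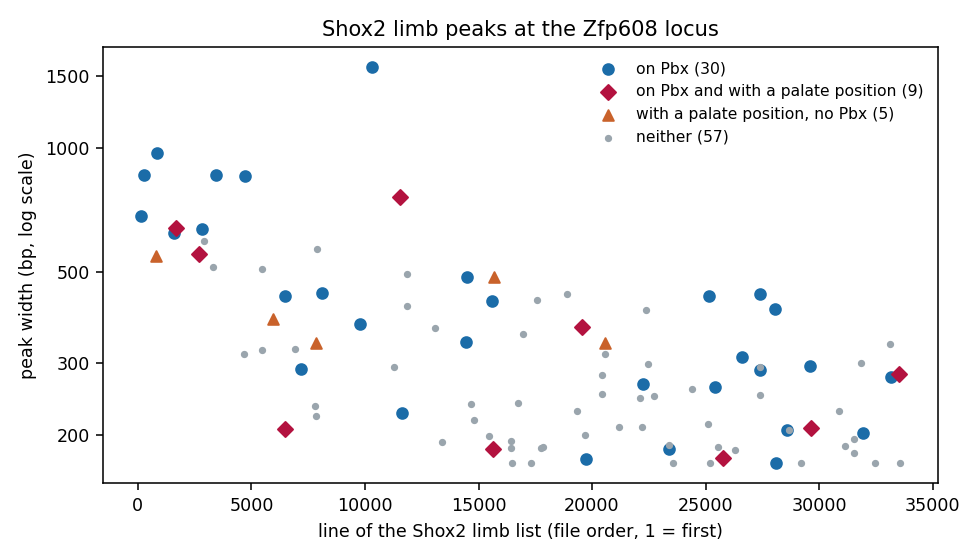
Each point is 1 of the 101 Shox2 limb peaks of the locus, with its line in the deposited list on the horizontal axis and its width in bp on a logarithmic vertical axis. Symbols separate the 30 peaks on Pbx, the 9 on Pbx that also hold a palate position, the 5 with a palate position and no Pbx, and the 57 with neither. The widest peaks at the top of the list are mostly on Pbx, while the 9 sites found in all 3 lists are scattered over lines 1697 to 33509.

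Shox2 and Pbx limb peaks met often at the deposited extents. Of the 101 Shox2 limb peaks, 39 (38.6%, exact binomial 95% interval 29.1 to 48.8%) overlapped a Pbx peak by at least 1 bp, against 26.5% of the whole list. These 39 are the entries of the co-occupied list in the window. The locus was chosen as rich in such entries, so the intervals given here for either side are no test against the list. From the other side, 28 of 44 Pbx peaks (63.6%, interval 47.8 to 77.6%) met a Shox2 limb peak, against 23.4% of the whole Pbx list. The Shox2 side depended on the extents used. When at least 50% of the Shox2 peak had to be covered, 37.6% were on Pbx at the locus, against 25.9%. With every peak set to 200 bp around its centre, 13 of 101 Shox2 peaks (12.9%) overlapped Pbx at the locus, against 16.4% over the whole list, so the order of locus and list was turned round. On the Pbx side the share at 200 bp was 29.5% at the locus, against 16.3%. Shox2 peaks stood closer together at the locus and Pbx peaks were wider there, and the part of either in these shares was not tested.

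Co-occupied peaks of the locus were less closely centred than in the whole list. From the centre of a Shox2 peak to that of the Pbx peak it met, the median was 273.5 bp at the locus (quartiles 149.5 and 577.75 bp), against 142 bp over the list (63 and 289 bp). Most Shox2 peaks lay wholly inside the Pbx peak in both, 87.2% at the locus and 87.5% over the list. Single Pbx peaks often held several Shox2 peaks: 7 held 2 and 2 held 3. These 9 made up 32.1% of the Pbx peaks with any Shox2 peak, against 12.1% over the list. They took in 20 of the 39 co-occupied Shox2 peaks, against 2039 of 8999 over the list. The count of 39 thus includes several Shox2 peaks on the same Pbx peak. The pair with 3 were chr18:55349074-55350878 and chr18:55922696-55924427.

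The share of Shox2 limb peaks on Pbx was lower below the gene than in it or above it. It was 7 of 28 (25%) below, 5 of 11 (45.5%) in the gene and 27 of 62 (43.5%) above, against 26.5% of the whole list. The share below was thus near that of the list. With the gene limits widened by 10 kb it was 25.9% below, 33.3% in the gene and 45.8% above, so the order of the gene and the stretch above it depends on those limits. In the last 2 bins, from 55.8 to 56 Mb, which were singled out after their values were seen, 11 of 14 peaks were co-occupied, with 10 Pbx peaks in those bins. At 200 bp the counts were 2 of 28 below, 3 of 11 in the gene and 8 of 62 above. Together these were 12.9% of the Shox2 limb peaks of the locus, against 16.4% of the whole list. Co-occupied Shox2 peaks were wider than the others, with medians of 367 and 242.5 bp, as in the whole list with 326 and 245 bp. Within the last 50% of the list, 18 of 55 locus peaks (32.7%) were on Pbx, against 18.5% of all peaks there. Within the first 50% it was 21 of 46 (45.7%), against 34.6%. Among peaks no wider than the list median it was 10 of 46 (21.7%), against 18.4%, and among wider ones 29 of 55 (52.7%), against 34.7%.

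The 62 Shox2 limb peaks off Pbx lay a median of 12.3 kb from the nearest Pbx peak. Of these, 41 were more than 5 kb away and 2 lay within 500 bp. The 16 Pbx peaks without a Shox2 limb peak were 143 bp to 14.2 kb from the nearest one, with a median of 5.79 kb. They had a median width of 908.5 bp, against 1566.5 bp for the 28 that met Shox2.

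**Figure D4:**
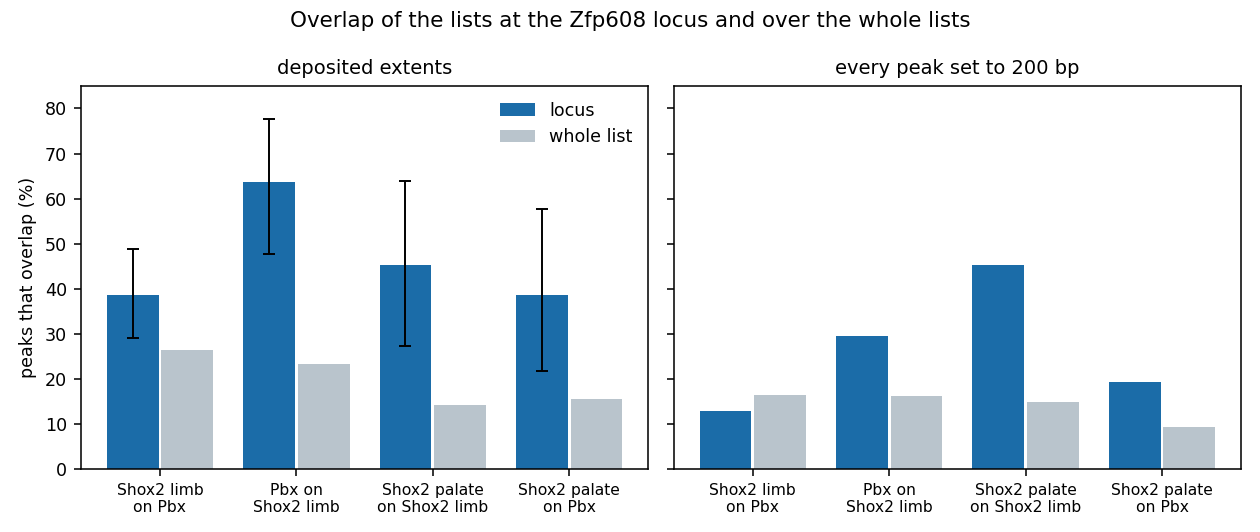
Bars give the percentage of peaks that overlap the other list by at least 1 bp, at the locus (blue) and over the whole list (grey). The left panel has the deposited extents and the right panel has every peak set to 200 bp. Error bars, drawn on the left only, are exact binomial 95% intervals over peaks and cover counting error only. For Shox2 limb on Pbx the locus is above the list at the deposited extents (38.6% against 26.5%) and below it at 200 bp (12.9% against 16.4%), while palate on limb Shox2 is 45.2% at the locus in both panels.

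Palate and limb Shox2 shared many sites at the locus. A Shox2 limb peak covered 14 of the 31 palate positions (45.2%, exact binomial 95% interval 27.3 to 64.0%), against 14.2% of the palate list. Set to 200 bp, 45.2% overlapped at the locus and 14.9% over the list. The 14 positions fell in 14 different limb peaks, 13.9% of the limb peaks of the locus, against 6.28% of the limb list. They lay close to the limb centres, at a median of 66 bp (4.5 to 310 bp), as in the whole list, where the median was 61 bp. Of the 17 other positions, 3 were within 500 bp of a limb peak, among them 54823560 at 14 bp, and 8 were more than 5 kb away.

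Palate positions also met limb Pbx peaks, although Pbx was not profiled in palate. A Pbx peak covered 12 of the 31 (38.7%, interval 21.8 to 57.8%), against 15.6% of the palate list, and 10 of the 12 were above the gene. They fell in 11 of the 44 Pbx peaks (25%), against 6.62% of the Pbx list. At 200 bp the share of palate positions was 19.4% at the locus, against 9.37%. In the first 50% of both lists 2 of 15 palate positions of the locus met Pbx (13.3%), against 12.2%, so the gap to the whole list was small there. Of the 31 positions, 9 (29.0%) lay in both a Pbx and a Shox2 limb peak, against 5.18% of the palate list. In a Pbx peak but no Shox2 limb peak lay 3 (9.68%), near the 10.4% of the palate list. These are shares of all palate positions. Among positions inside Shox2 limb peaks, 9 of 14 were on Pbx at the locus, against 782 of 2150 over the list. Among positions outside them, 3 of 17 were on Pbx, against 1572 of 12941. Neither difference was tested. The 3 positions outside were 55152352, 55587472 and 55893415, the last 105 bp from a limb peak.

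The first palate positions in file order lay outside Pbx peaks. The 7 locus positions in the first decile of the palate list were, in order, 54880015, 55406592, 54874330, 55613407, 55866115, 55227492 and 55061986, on lines 513 to 1293. None of the 7 lay in a Pbx peak, against 376 of the 1509 positions in the first decile of the whole list, a difference that was not tested. Of the 7, 4 lay inside a Shox2 limb peak, against 489 of the 1509 over the list, which was not tested either. Position 54880015 was 1162 bp from the nearest limb peak, and position 55227492 was 19874 bp from it, in a stretch of few limb peaks. The next 3 of the locus in file order were 55537550 on line 1803, which lay in both a Shox2 limb and a Pbx peak, 54845565 on line 2187, which lay in neither, and 54876794 on line 3001, which lay in a Shox2 limb peak alone.

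Limb and palate Shox2 met without Pbx at 5 of the 101 limb peaks of the locus (4.95%), near the 3.97% of the whole limb list. The 5 were chr18:54874025-54874508 and chr18:54876473-54876806 below the gene, and chr18:55406396-55406779, chr18:55613162-55613706 and chr18:55865892-55866226 above it. Their widths were 334 to 545 bp, with lines from 803 to 20587. The first of them ended nearest to Pbx, 76 bp from a Pbx peak, and its palate position was 381 bp from that peak.

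Sites in all 3 lists numbered 9 among the 101 Shox2 limb peaks (8.91%, exact binomial 95% interval 4.16 to 16.2%), against 2.30% of the limb list. Away from the locus, no window of 1.3 Mb among 25513 on chromosomes with such sites held more than 7, the highest being on chromosome 7 from 142.5 to 143.8 Mb. Such sites are among the co-occupied peaks for whose number the locus was chosen. The count depends on peak extent: it was 4 when every peak was set to 200 bp. With palate positions counted up to 500 bp from the limb peak it was 13. No whole-list value is given here for either setting, so these 2 counts cannot be set against the list. Of the 9, 2 lay below the gene, 7 above and none in it.

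Below the gene, the site at chr18:54771370-54771651 (282 bp) stood on line 33509 of the limb list, near its end, in a Pbx peak of 3668 bp whose centre was 716 bp away. The site at chr18:54989274-54989448 (175 bp, line 25751) lay at the edge of a Pbx peak of 2091 bp, with centres 928 bp apart. Both palate positions, 54771613 and 54989419, were in the last 2 deciles of the palate list. These sites joined low entries of the Shox2 lists with broad Pbx peaks.

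Above the gene, the site at chr18:55349252-55349891 (640 bp) was the highest in the limb list, on line 1697, and shared its Pbx peak of 1805 bp with 2 further Shox2 limb peaks. The palate position 55349692 was 120 bp from its centre. At chr18:55469625-55469991 (367 bp, line 19544) the Pbx centre was 102 bp and the palate position 121 bp from the Shox2 centre. The site at chr18:55537527-55537710 (184 bp) stood on line 15646 for Shox2 limb, on line 2059 for Pbx and on line 1803 for palate. At chr18:55666809-55667015 (207 bp, line 29622) the palate position was nearest to the centre, at 28 bp. The site at chr18:55855436-55856195 was the widest, with 760 bp, and its centre was 1110 bp from that of its Pbx peak of 2690 bp. The last pair, chr18:55975343-55975895 (line 2694) and chr18:55976103-55976308 (line 6459), lay in the same Pbx peak, chr18:55974720-55976395, and each held a palate position of its own, 55975737 and 55976148.

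**Figure D5:**
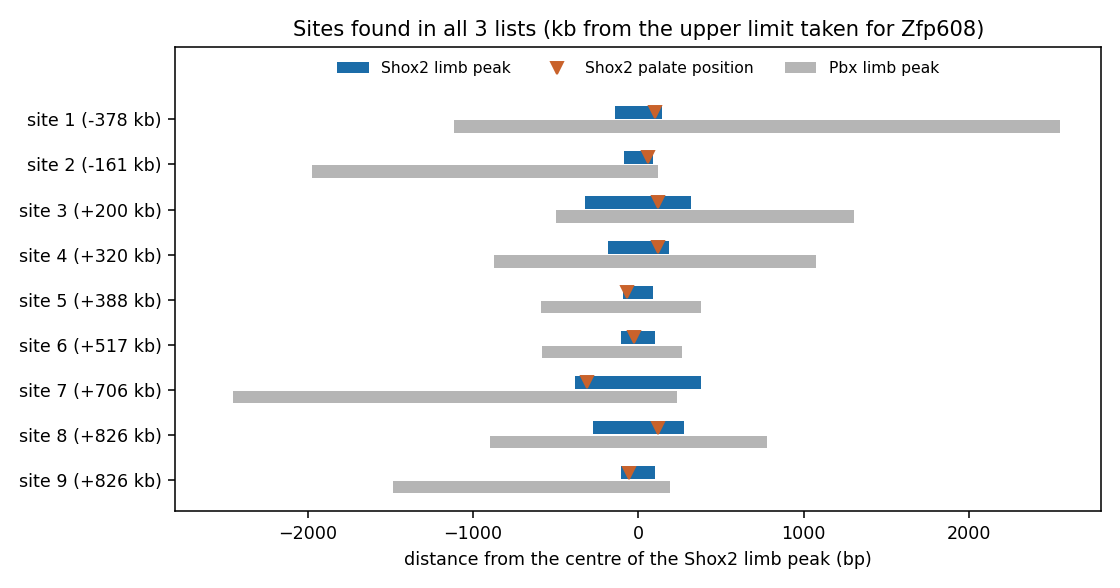
For each of the 9 sites found in all 3 lists, the blue bar is the Shox2 limb peak, the orange mark the Shox2 palate position and the grey bar the overlapping Pbx limb peak, on a horizontal axis of bp from the centre of the Shox2 peak; row labels give the distance in kb from the upper limit taken for Zfp608. Palate positions lie 28 to 310 bp from the Shox2 limb centre, and Pbx centres 62 to 1110 bp from it, so the Pbx peaks reach far to one side at several sites.

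Of the 5 windows of 1 Mb with the most co-occupied peaks, this locus held the one with the most sites in all 3 lists. The window from 55 to 56 Mb of chromosome 18 held 75 Shox2 limb peaks, 32 of them on Pbx (42.7%), with 22 palate positions and 7 sites in all 3 lists. The other 4 windows of this kind, on chromosomes 3, 14, 9 and 1, held 70 to 93 Shox2 limb peaks and 33 to 35 co-occupied ones. They had 12 to 22 palate positions, and 1 or 2 sites in all 3 lists. The difference was not tested.

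Peaks went on across the edges of the window. The first Shox2 limb peak inside it, chr18:54710227-54710540 (314 bp, line 20562), and the last one below it, chr18:54694794-54695142 (349 bp, line 14849), were both entries from the middle of the list. At the upper edge the last peak inside was chr18:55976103-55976308 (206 bp, line 6459), and the next outside was chr18:56047184-56047427 (244 bp, line 7888). The palate position nearest to the edge, 54700065 on line 6668, lay 0.0645 kb inside it.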

How the data were processed

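ChIP-seq peak lists of 3 libraries and the list of co-occupied regions were used. The submitters' processing notes name Bowtie, MACS2 and the mouse build mm9, without versions, settings or cutoffs. The deposited lists hold a chromosome, start and end per peak, without height, score or p-value, so depth is unknown. Palate entries are 1 bp wide. The authors' co-occupied list was the same 8999 regions as the Shox2 limb peaks that overlapped Pbx by 1 bp. Starts are printed counted from 1.

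Members were peaks with their midpoint in the window. They and the quantities described were chosen with earlier results of these data known. Peaks named were those in all 3 lists, the 5 highest of each limb list, the first 10 palate positions and the palate and Pbx peaks in the gene; further peaks were named after their values were seen. Overlap meant at least 1 bp. No test was run, since each group has 1 library. Intervals of 95% are exact binomial intervals over peaks, cover counting error only and treat neighbouring peaks as independent. The overlap code was tested on simulated intervals. Python 3.11.15, NumPy 2.4.6, pandas 2.3.3, SciPy 1.17.1 and matplotlib 3.10.9 were used. Sequence of this chromosome is not reported here.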

Additional observations from a re-analysis of the deposited data

How the results depend on the processing

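Counting any overlap with the window, instead of midpoints, left 101 Shox2 limb, 31 palate and 44 Pbx peaks. In the first 50% of each list the counts were 46, 15 and 29, and with 500 kb added on each side they were 170, 47 and 68; fewer or more peaks follow from the construction of both. With every peak set to 200 bp, 12.9% of Shox2 limb peaks were on Pbx (38.6% at the deposited extents), 29.5% of Pbx peaks on Shox2 limb (63.6%), 19.4% of palate positions on Pbx (38.7%) and 4 Shox2 limb peaks in all 3 lists (9). Within gene limits widened by 10 kb on each side there were 15 Shox2 limb, 3 palate and 7 Pbx peaks, against 11, 2 and 6 as reported. In the first 50% of the lists 13.3% of palate positions were on Pbx. The other definitions of overlap and windows tried gave shares within the exact binomial interval of the reported value. These intervals are wide and the peaks are largely the same, so this is no test of stability. In the first 50% of the lists, 33.3% of palate positions lay in a Shox2 limb peak (45.2% as reported). There 55.2% of Pbx peaks were on Shox2 limb (63.6%) and 41.3% of Shox2 limb peaks on Pbx (38.6%). Over the whole lists these first-50% shares were 13.7%, 22.8% and 24.4%. No paired analysis was possible because there are no replicates, so leaving out a library was not possible either. Depth is unknown, and a site that a list lacks may lie under that list's cutoff.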

Other observations

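The crowding of Shox2 limb peaks went on beyond the window. The 500 kb below it, from 54.2 to 54.7 Mb, held 40 Shox2 limb peaks (80.0 per Mb), of which 15 (37.5%) were on Pbx, with 12 Pbx peaks, 10 of them on Shox2. It had 7 palate positions, of which 5 lay in a Shox2 limb peak and 5 in a Pbx peak, and 5 sites in all 3 lists. The 500 kb above, from 56 to 56.5 Mb, held 29 Shox2 limb peaks (58.0 per Mb), 12 of them (41.4%) on Pbx. It had 12 Pbx peaks, 9 of them on Shox2, and 1 site in all 3 lists. Of its 9 palate positions, 3 lay in a Shox2 limb peak and 1 in a Pbx peak. Over the whole lists 26.5% of Shox2 limb peaks were on Pbx and 23.4% of Pbx peaks on Shox2 limb. Of all palate positions, 14.2% lay in a Shox2 limb peak and 15.6% in a Pbx peak. Sites in all 3 lists were 2.30% of all Shox2 limb peaks. Both flanks were looked at after the data were seen.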
